A study of Homo sapiens with 12 samples.

Results

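Sublines obtained by an invasion assay were compared with their parent cells in 2 head and neck squamous carcinoma lines. The lines were Fadu, from the hypopharynx, and OECM1, from the gingiva. The data used were 8 of the 12 arrays of the series: 4 arrays of invasion sublines, 2 from each line, and 4 arrays of parent cells, 2 from each line. They were chosen by their labels alone, and the 4 arrays labelled Detroit were left out. The sublines were highly invasive cells obtained by an invasion assay in Matrigel, a basement membrane extract, and the parent cells were the unselected lines. No gene was engineered and no drug is named for any group. The number of selection rounds, and whether a subline is 1 clone, are not given in the sources used here. The 2 arrays of a group are not said to come from separate cultures. P-values therefore measure only how far these arrays spread, and the spread between duplicates may be technical. In the test across both lines, the spread also holds any difference between the lines in their change.

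Carcinoma cells cross a basement membrane by loosening contacts with their neighbours, by engaging matrix through receptors such as integrins and CD44, and by cutting matrix with proteases. Cells that do so often turn on part of the program of epithelial-mesenchymal transition, in which transcription factors such as SNAI2 and TWIST1 weaken epithelial traits. Squamous carcinoma cells also secrete chemokines of the CXCL family, which attract neutrophils through the receptors CXCR1 and CXCR2.

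Values are log2 expression values, and a change is the mean of the subline minus the mean of the parent, so a change of 1 is a doubling. A gene is called apart in a line when its subline and parent values do not overlap, all of one state exceeding all of the other. The array medians ran from 4.92 to 5.06. The root mean square difference between duplicates was 0.426 in the Fadu subline, 0.487 in the Fadu parent, 0.507 in the OECM1 subline and 0.756 in the OECM1 parent. The ACTB control ratio, 3 prime over 5 prime on the log2 scale, rises as RNA degrades. It ran from -0.05 to 0.63 in the sublines and from -0.23 to 0.87 in the parents, and these ranges overlap. The duplicates of a group differed, however, and in a crossed way. In both lines subline replicate 1 and parent replicate 2 had the lower ratio (-0.23 to 0.06). Their 18S RNA control signal was the higher (6.96 to 8.52). Subline replicate 2 and parent replicate 1 had ratios of 0.40 to 0.87 and 18S values of 5.64 to 5.72. All 8 squamous carcinoma markers with a usable probe set were above the limit for dim genes, a log2 value of 4.50, in at least 2 arrays. KRT14, a keratin of basal keratinocytes, was clear in Fadu (8.20 to 9.48) but near or under that limit in OECM1 (3.90 to 4.94). Among markers of other cells, 9 of 14 fibroblast, 6 of 12 endothelial and 10 of 16 leukocyte genes also exceeded the limit in at least 2 arrays. The other 5 fibroblast, 6 endothelial and 6 leukocyte genes lay under it in all 8 arrays. Those include LUM and FAP of fibroblasts, PECAM1, CDH5 and VWF of endothelium, and PTPRC, the pan-leukocyte gene. The mean level of the fibroblast list was 4.51 to 4.57 in the Fadu subline and 4.74 to 4.85 in its parent, so it was lower in that subline without overlap. In OECM1 it was 4.50 to 4.79 in the subline and 4.36 to 4.76 in the parent, and these ranges overlap.

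The central question was which genes differ between subline and parent in the same way in both lines. No gene passed the test across all genes. Limma called 0 of 8782 genes (0%) at an adjusted p under 0.05, with 340 (3.87%) at an unadjusted p under 0.05, of which 201 were higher (2.29%) and 139 lower (1.58%), where 439.1 are expected if nothing differs. The smallest adjusted p was 0.344, shared by the chemokine genes CXCL2 and CXCL8. The changes of individual genes below are therefore values and not calls. The fit had a median SE of 0.220 on the log2 scale. The SE of a shared change holds disagreement between the 2 lines as well as the spread of duplicates.

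Counted by their arrays, 413 genes (4.70%) were apart in the same direction in both lines, 196 of them higher in the sublines (2.23%) and 217 lower (2.47%). With 2 arrays against 2 in each line, genes can also be apart by the order of the arrays alone. The count expected from this was not computed. Scaling moved this split: it was 165 higher and 246 lower after a further quantile normalization, and 228 higher and 171 lower with each array centred on its median. Nearly as many genes, 372 (4.24%), were apart in opposite directions, 152 of them higher in Fadu and lower in OECM1 (1.73%) and 220 the reverse (2.51%). Among genes with a change of at least 0.5 in each line the same-direction counts were 50 higher (0.569%) and 29 lower (0.330%), against 55 (0.626%) in opposite directions. At a change of at least 1 in each line they were 6 higher (0.0683%) and 4 lower (0.0455%), against 3 (0.0342%). Across the 8782 genes, which are not independent replicates, the Fadu and OECM1 changes correlated at r = 0.0396, and 51.6% of genes had the same sign in both lines.

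**Figure D1:**
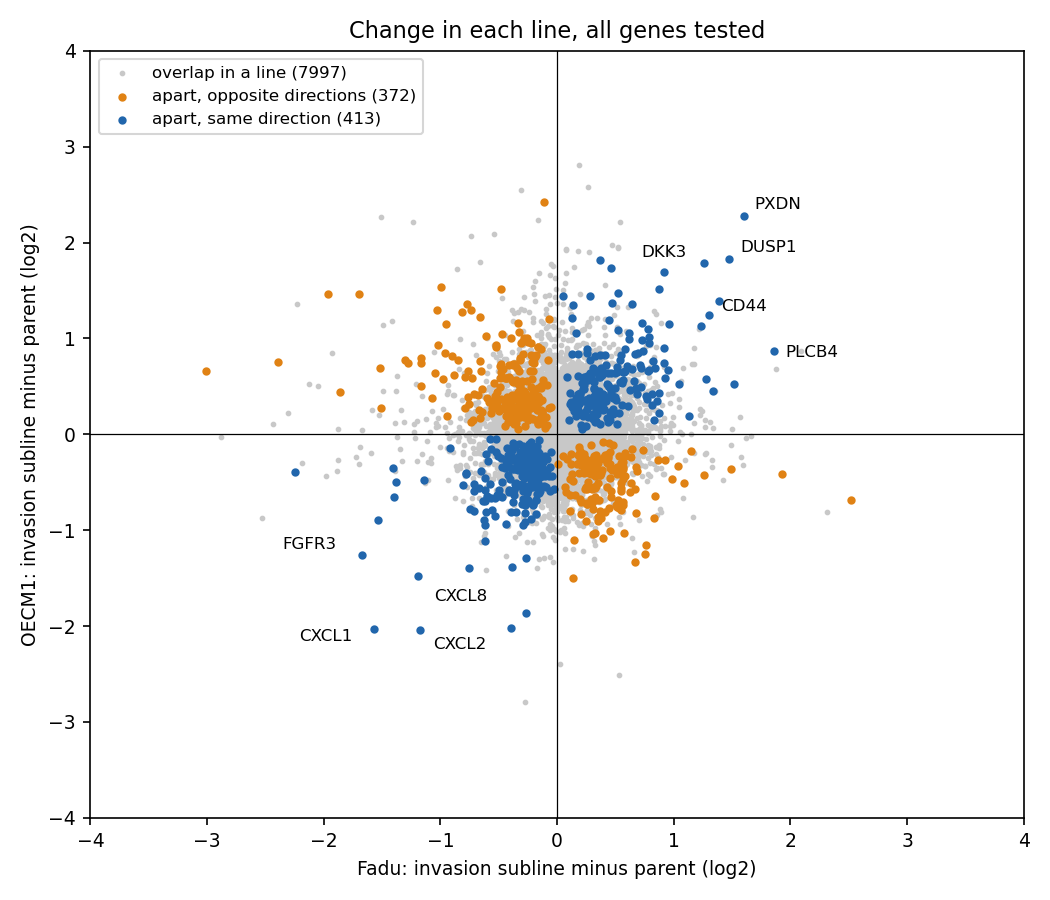
Change of each of the 8782 genes tested, as the log2 difference between invasion subline and parent, with Fadu on the horizontal axis and OECM1 on the vertical axis. Blue points are the 413 genes whose arrays were apart in the same direction in both lines, orange points the 372 apart in opposite directions and grey points the rest; the cloud has little slope (r = 0.0396), and CXCL1, CXCL2, CXCL8, PXDN, DUSP1 and CD44 stand at its edge.

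This balance depended on single arrays. Leaving out an array makes it easier to be apart, so both counts rise by construction, but not alike. Without OECM1 parent replicate 1 the counts were 1401 genes in the same direction and 757 in opposite directions, and r was 0.169. Without OECM1 parent replicate 2 they were 794 and 1338, and r was -0.132. The other leave-outs gave between 665 and 868 genes in the same direction and between 601 and 881 in opposite directions. The shared test still called 0 genes without any 1 of the 8 arrays.

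**Figure D2:**
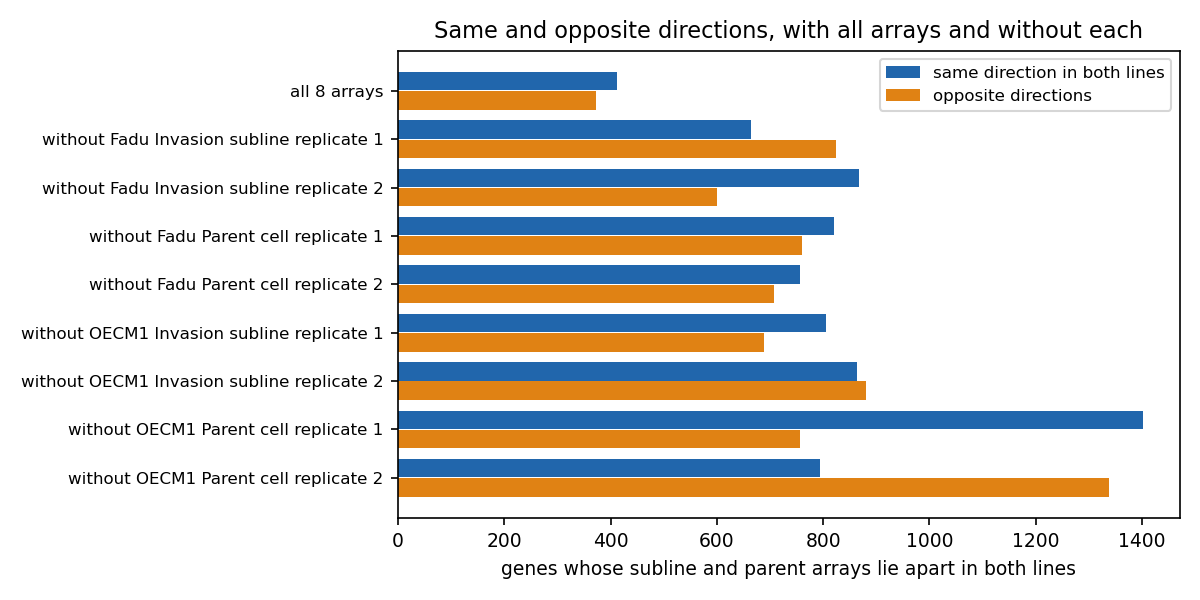
Number of genes whose subline and parent arrays were apart in both lines, in the same direction (blue) or in opposite directions (orange), with all 8 arrays and without each array in turn. The 2 OECM1 parent arrays pull the counts opposite ways: 1401 against 757 genes without replicate 1, and 794 against 1338 without replicate 2.

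The lowest p-values belonged to neutrophil-attracting chemokines, whose levels were lower in both sublines although no gene passed the test. CXCL8, the chemokine interleukin-8, measured 8.27 and 8.72 in the Fadu subline against 10.01 and 9.37 in its parent, and 8.93 and 8.95 in the OECM1 subline against 10.66 and 10.19 in its parent. All 4 subline arrays lay below all 4 parent arrays, the OECM1 subline arrays being almost equal. Its level was 2.29-fold lower in Fadu and 2.79-fold lower in OECM1, a shared log2 change of -1.34 (SE 0.213, 95% interval -1.81 to -0.87, adjusted p = 0.344, limma). CXCL2, a neutrophil chemokine also known as GRO-beta, measured 4.87 and 5.01 in the Fadu subline against 5.87 and 6.34 in its parent, and 7.43 and 6.80 in the OECM1 subline against 9.22 and 9.09 in its parent. The lines differ in level, OECM1 being higher in both states, but within each line the states do not overlap. Its shared change was -1.61 (SE 0.251, 95% interval -2.16 to -1.05, adjusted p = 0.344, limma), with 2.25-fold in Fadu and 4.12-fold in OECM1. CXCL1, or GRO-alpha, had 5.60 and 6.49 in the Fadu subline against 7.04 and 8.18 in its parent, and 6.54 and 7.26 in the OECM1 subline against 10.40 and 7.45 in its parent. The OECM1 parent arrays lie far apart, and replicate 2 was close to the subline arrays. Its shared change was -1.80 (SE 0.557, 95% interval -3.03 to -0.56, adjusted p = 0.998, limma), and without OECM1 parent replicate 1 it was -1.16. CXCL3, a close relative, was dim, with changes of -0.33 in Fadu and -0.45 in OECM1, and its arrays overlap in OECM1.

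The 3 chemokine genes lie in 1 gene cluster on chromosome 4, and their promoters are shown because they share a letter pattern. In the RefSeq promoter table for GRCh38.p14, the 150 bases before the start of each gene are at chr4:73869243-73869392 (plus strand) for CXCL1, chr4:74099196-74099345 (minus strand) for CXCL2 and chr4:73740419-73740568 (plus strand) for CXCL8. They read as follows, 5′ to 3′, with capitals at GGAATTTCC, a motif of NF-kB type, and at TGANTCA, a motif of AP-1 type.
CXCL1: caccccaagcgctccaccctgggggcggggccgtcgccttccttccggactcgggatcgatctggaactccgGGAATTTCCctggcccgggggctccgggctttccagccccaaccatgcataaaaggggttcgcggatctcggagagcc
CXCL2: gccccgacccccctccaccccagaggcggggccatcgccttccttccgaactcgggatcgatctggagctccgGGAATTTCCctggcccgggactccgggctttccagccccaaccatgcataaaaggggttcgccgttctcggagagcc
CXCL8: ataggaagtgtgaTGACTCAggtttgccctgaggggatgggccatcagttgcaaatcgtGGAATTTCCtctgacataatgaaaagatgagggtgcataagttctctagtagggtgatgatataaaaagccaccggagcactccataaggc
GGAATTTCC, whose reverse complement was searched too, begins 78 bases before the start in CXCL1, 77 in CXCL2 and 91 in CXCL8. TGANTCA was found in the window of CXCL8, 137 bases before the start. In the 150 bases before the start, GGAATTTCC is held by 0.253% of 35116 promoter entries and TGANTCA by 4.17%. In the whole 300 bases of an entry, 0.461% of all entries held GGAATTTCC. Of the 24 genes named for their size of change, 14 had an entry and 4 of these held it, the 3 chemokine genes and CRYBG1. The 3 chemokine genes are shown because they share this pattern, so their part of the count was known in advance. The count is of genes, not entries, and enrichment was not tested. A match of letters is not evidence of binding. The near identity of CXCL1 and CXCL2 is visible in the sequences, and array probes of such close relatives can share signal. The probe sets used for CXCL2, CXCL8 and CD44 are of a class whose probes may also match other transcripts, while a second CXCL8 probe set of another class had changes of -1.45 in Fadu and -1.55 in OECM1.

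The wider list of NF-kB targets, chemokines and cytokines was lower more often than higher. Of 26 members tested, 4 were apart and lower in both lines (15.4%, against 2.47% of all genes). Another 1 was apart and higher, 1 was apart in opposite directions, and 0 were called. The lower members include CXCL1, CXCL2 and CXCL8, related genes of 1 cluster already named for their size of change. Their signals may be partly shared, so they are not independent members. The list was also drawn up with earlier results of these data known. The share is therefore a description and not a test of NF-kB targets as a class. The median change was -0.26 in Fadu and -0.14 in OECM1, against -0.02 in Fadu and 0.01 in OECM1 over all genes. The fourth lower member was IL1A, the alarmin cytokine interleukin-1 alpha, at 6.63 and 7.20 in the Fadu subline against 7.29 and 7.76 in its parent, and 9.90 and 9.77 in the OECM1 subline against 9.93 and 11.36 in its parent. Its OECM1 subline lay just below the lower parent array. IL1B, interleukin-1 beta, had changes of -1.39 in Fadu and -0.38 in OECM1, with OECM1 arrays that overlap. Not all inflammatory genes followed. CCL5, which attracts T cells, was the member apart and higher, with changes of 0.82 in Fadu and 0.30 in OECM1, though its OECM1 levels of 3.67 to 4.16 are under the dim limit. IL6, the cytokine interleukin-6, had changes of 1.36 in Fadu and 0.45 in OECM1. Its arrays were apart in Fadu and overlapped in OECM1. The NF-kB feedback genes NFKBIA and TNFAIP3 had changes of -0.06 and -0.74 and of 0.02 and -0.17 in Fadu and OECM1, in that order.

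Besides the chemokines, the lower genes named for their size included a growth factor receptor and genes of chromatin and ubiquitin regulation. FGFR3, a receptor tyrosine kinase for fibroblast growth factors, measured 5.19 and 5.85 in the Fadu subline against 8.12 and 6.26 in its parent, and 5.61 and 6.03 in the OECM1 subline against 6.95 and 7.21 in its parent. All 4 subline arrays lay below all 4 parent arrays. Its level was 3.19-fold lower in Fadu and 2.40-fold lower in OECM1, with a shared change of -1.47 (SE 0.363, 95% interval -2.27 to -0.66, adjusted p = 0.998, limma). KCTD12, an auxiliary subunit of GABA-B receptors, measured 5.02 and 5.26 in the Fadu subline against 5.64 and 6.15 in its parent, and 5.59 and 5.94 in the OECM1 subline against 7.12 and 7.20 in its parent. The difference is larger in OECM1, and the parent duplicates there are close. The shared change was -1.08 (SE 0.215, 95% interval -1.55 to -0.60, adjusted p = 0.849, limma). CA2, a carbonic anhydrase that sets intracellular pH, measured 5.80 and 7.11 in the Fadu subline against 7.48 and 8.50 in its parent, and 4.37 and 4.56 in the OECM1 subline against 6.07 and 4.65 in its parent. In OECM1 the gene is near the dim limit and parent replicate 2 lies beside the subline arrays.

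The remaining lower genes ranked below these or had less of a difference in one line. TRIM8, a RING finger ubiquitin ligase gene, had 5.05 and 5.32 in the Fadu subline against 5.85 and 5.78 in its parent, and 5.18 and 5.58 in the OECM1 subline against 6.40 and 6.15 in its parent. Its duplicates are tight, and the shared change was -0.76 (SE 0.182, 95% interval -1.16 to -0.36, adjusted p = 0.998, limma). SERPINF1, which encodes the secreted anti-angiogenic protein PEDF, had changes of -0.62 in Fadu and -0.70 in OECM1. CDYL, a chromodomain corepressor gene, had -0.71 in Fadu and -0.80 in OECM1, and JADE2, a PHD finger gene of histone acetylation complexes, had -1.40 in Fadu and -0.65 in OECM1. CRYBG1 had changes of -0.63 in Fadu and -0.69 in OECM1, and GSE1 had -0.74 in Fadu and -0.77 in OECM1, where OECM1 parent replicate 1 (6.34) lay barely above the subline arrays (6.28 and 6.32). The adjusted p of the 12 lower genes ran from 0.344 to 0.998.

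**Figure D3:**
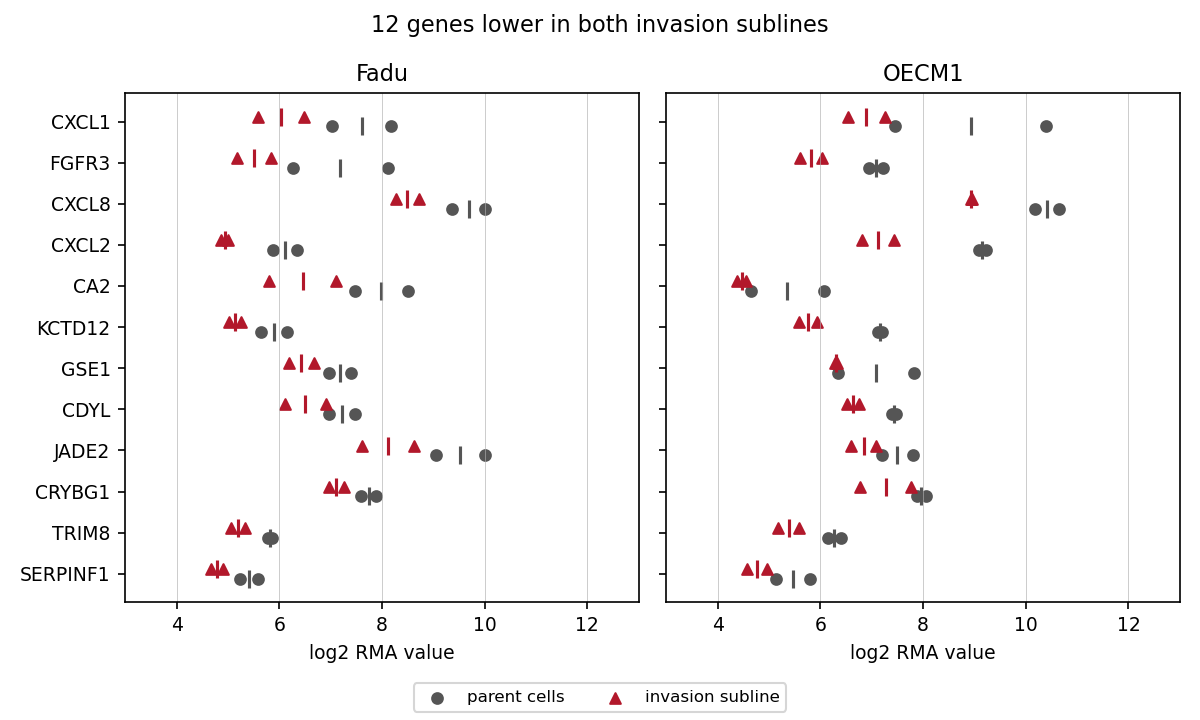
Log2 RMA values of the 12 genes named as lower in both invasion sublines, one row per gene, with Fadu at left and OECM1 at right. Grey circles are the 2 parent arrays, red triangles the 2 subline arrays and vertical ticks the group means. Both triangles lie below both circles in every row because only such genes were named, by a hair for GSE1 in OECM1. The OECM1 parent circles of CXCL1 lie widest apart (10.40 and 7.45).

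Among the higher genes, the adhesion receptor CD44 and other genes of epithelial-mesenchymal transition made up a larger share than in the background. CD44, the receptor for hyaluronan, measured 10.42 and 9.50 in the Fadu subline against 8.47 and 8.85 in its parent, and 12.11 and 11.59 in the OECM1 subline against 11.05 and 10.15 in its parent. Subline and parent do not overlap in either line, and OECM1 is the higher line in both states. CD44 was 2.46-fold higher in Fadu and 2.37-fold higher in OECM1, a shared change of 1.27 (SE 0.262, 95% interval 0.69 to 1.85, adjusted p = 0.879, limma). It has 8 probe sets, and 5 of them were apart and higher in both lines. The CD44 probe set with the largest interquartile range over the arrays had a mean change of -0.056 over both lines. LGALS1, the galactose-binding lectin galectin-1, measured 11.95 and 11.27 in the Fadu subline against 11.15 and 10.48 in its parent, and 12.18 and 12.48 in the OECM1 subline against 11.01 and 11.60 in its parent. The gap between the states is narrow in Fadu, and the shared change was 0.91 (SE 0.212, 95% interval 0.43 to 1.38, adjusted p = 0.998, limma).

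Of the 17 members of the epithelial-mesenchymal transition list that were tested, 5 were apart and higher in both lines (29.4%, against 2.23% of all genes), 0 were apart and lower and 0 were called, with a median change of 0.35 in Fadu and 0.30 in OECM1. The list was drawn up with earlier results of these data known, so this count is a description. SNAI2, a repressor of epithelial genes also known as Slug, measured 8.73 and 8.71 in the Fadu subline against 8.06 and 7.75 in its parent, and 10.32 and 9.92 in the OECM1 subline against 9.50 and 9.89 in its parent. The OECM1 subline lay just above its parent there. TWIST1, a mesenchymal transcription factor, had changes of 0.61 in Fadu and 0.30 in OECM1, at low levels of 4.28 to 5.41 over the 8 arrays. PDPN, podoplanin, a membrane glycoprotein of the invasive front of squamous tumours, measured 5.62 and 5.25 in the Fadu subline against 4.72 and 5.22 in its parent, and 7.11 and 6.61 in the OECM1 subline against 5.66 and 4.59 in its parent. Its difference lies mostly in OECM1. VIM, vimentin, the mesenchymal intermediate filament, had its larger difference in OECM1, with changes of 0.19 in Fadu and 2.81 in OECM1 and Fadu arrays that overlap. The difference between the lines in VIM had an adjusted p = 0.988 (limma). AXL, a receptor tyrosine kinase, had changes of 1.22 in Fadu and 0.26 in OECM1, with OECM1 arrays that overlap.

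Genes that build or modify matrix supplied other large changes. PXDN, peroxidasin, an enzyme that cross-links collagen IV of basement membranes, measured 6.97 and 7.67 in the Fadu subline against 5.87 and 5.56 in its parent, and 8.47 and 7.96 in the OECM1 subline against 6.84 and 5.03 in its parent. By the probe set used, it had the largest change among genes apart in both lines by the smaller of its 2 line changes, 3.04-fold in Fadu and 4.86-fold in OECM1. Its shared change was 1.94 (SE 0.373, 95% interval 1.11 to 2.77, adjusted p = 0.786, limma). A second PXDN probe set was also apart and higher in both lines, but with a smaller change of 0.56 in Fadu and 1.84 in OECM1. The OECM1 parent duplicates of PXDN lie wide apart. P3H2, a prolyl 3-hydroxylase of basement membrane collagen, measured 8.21 and 8.09 in the Fadu subline against 6.55 and 7.83 in its parent, and 10.11 and 9.72 in the OECM1 subline against 9.20 and 8.34 in its parent. Fadu parent replicate 2 lay close to the subline. COL4A1 and COL4A2, the main collagen IV chains, had no shared direction in their arrays, with changes of 1.93 in Fadu and -0.42 in OECM1 for COL4A1 and 1.62 in Fadu and -0.04 in OECM1 for COL4A2. Of 22 basement membrane and integrin genes tested, 1 was apart and higher in both lines (4.55%, against 2.23% of all genes), namely ITGB5, an integrin beta subunit (0.48 in Fadu and 0.21 in OECM1), 0 were lower and 1 was opposite. By sign alone, 12 members had a change above 0 in both lines and 1 below 0 in both. Over all 8782 genes these counts were 2165 and 2365. LAMA4, a laminin chain, had 0.05 in Fadu and 1.50 in OECM1, its Fadu arrays all being under the dim limit.

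The other higher genes have varied roles. DKK3, a secreted protein of the Dickkopf family, measured 8.49 and 7.24 in the Fadu subline against 6.80 and 6.41 in its parent, and 6.78 and 7.03 in the OECM1 subline against 5.17 and 5.06 in its parent. The OECM1 duplicates are tight, and the shared change was 1.52 (SE 0.280, 95% interval 0.90 to 2.15, adjusted p = 0.740, limma). MYL9, the regulatory light chain of non-muscle and smooth muscle myosin, measured 7.77 and 6.87 in the Fadu subline against 6.75 and 5.11 in its parent, and 7.21 and 8.03 in the OECM1 subline against 6.38 and 6.07 in its parent. Its mean change was nearly equal in the lines, 1.39 in Fadu and 1.39 in OECM1, but Fadu parent replicate 1 lay just under the lower Fadu subline array. DUSP1, an early response phosphatase that switches off MAP kinases, measured 8.59 and 6.41 in the Fadu subline against 6.25 and 5.79 in its parent, and 9.89 and 8.93 in the OECM1 subline against 7.39 and 7.77 in its parent. The Fadu subline duplicates lie wide apart. A second DUSP1 probe set had changes of 0.35 in Fadu and 0.98 in OECM1, with arrays that overlap in both lines. STC1, the hormone stanniocalcin, measured 6.67 and 5.24 in the Fadu subline against 4.79 and 4.65 in its parent, and 8.04 and 8.35 in the OECM1 subline against 7.77 and 6.36 in its parent. Its level is near the dim limit in the Fadu parent. Of its further probe sets, one overlapped in Fadu and the other in OECM1. SOX9, a transcription factor of progenitor cells, measured 7.21 and 6.85 in the Fadu subline against 5.97 and 6.26 in its parent, and 5.72 and 6.49 in the OECM1 subline against 5.54 and 4.88 in its parent. The shared change of SOX9 was 0.91 (SE 0.238, 95% interval 0.38 to 1.44, adjusted p = 0.998, limma). A second SOX9 probe set had 1.18 in Fadu and 0.89 in OECM1, where its arrays overlap.

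The remaining higher genes serve transport and signalling. RABAC1, a Rab-binding membrane protein gene, had changes of 0.88 in Fadu and 1.51 in OECM1. IFT27, an intraflagellar transport gene, had 0.91 in Fadu and 1.69 in OECM1, and its second probe set gave -0.039 and 0.18. PLCB4, a phospholipase C gene, had 1.86 in Fadu and 0.87 in OECM1. All 4 parent arrays and OECM1 subline replicate 2 (4.37) lay under the dim limit, so PLCB4 passed the filter through subline arrays only. The adjusted p of the 12 higher genes ran from 0.740 to 0.998. In all, 12 of the 24 named genes had further probe sets above the dim limit, 20 probe sets in number, and 17 of these had the direction of the gene in both lines while 9 were also apart in both lines.

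**Figure D4:**
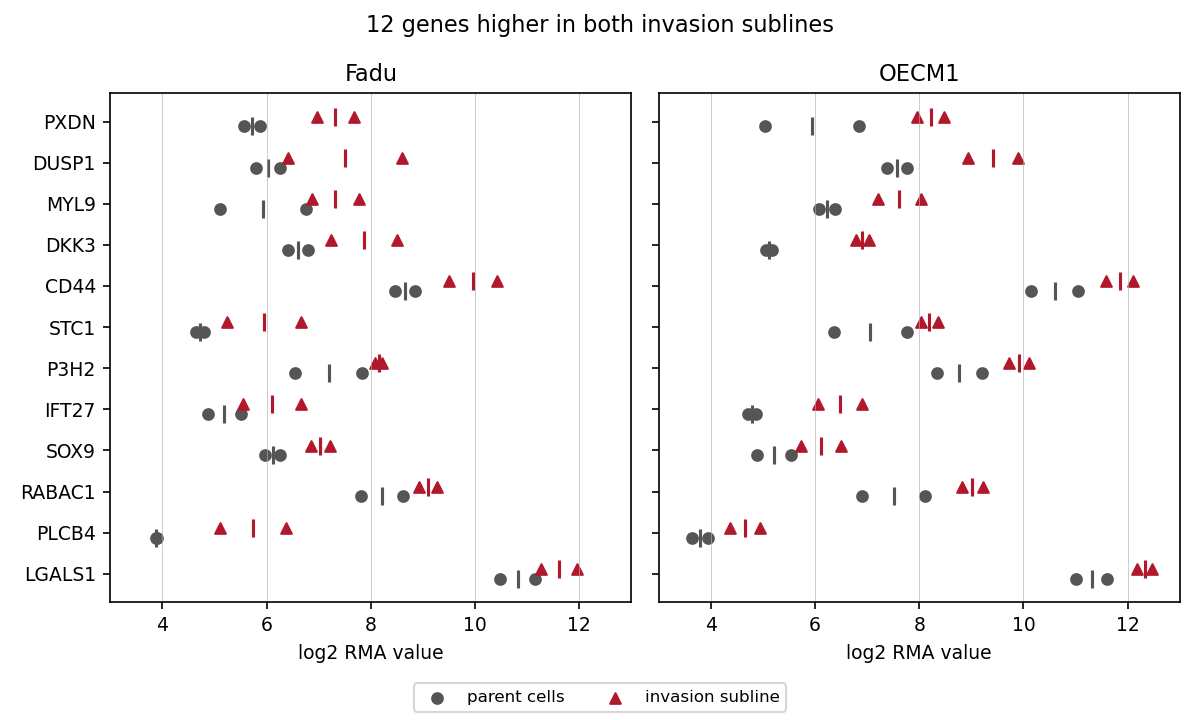
Log2 RMA values of the 12 genes named as higher in both invasion sublines, one row per gene, with Fadu at left and OECM1 at right. Grey circles are the 2 parent arrays, red triangles the 2 subline arrays and vertical ticks the group means; PXDN has the widest gap between group means in OECM1 (8.22 against 5.94), and IFT27, LGALS1 and MYL9 nearly touch in Fadu.

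The other 389 genes apart in the same direction differed less. For the 184 higher genes the smaller of the 2 line changes ran from 0.054 to 0.79 with a median of 0.31, and for the 205 lower genes it ran from 0.024 to 0.62 with a median of 0.23. The last gene named as higher had 0.79 and the next 0.79, and the last named as lower had 0.62 and the next 0.62, so the limit falls within a continuous range.

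Of 40 genes of the desmosome, tight junction and keratin lists 2 were apart and higher and 3 apart and lower in both lines. That is 5.0% and 7.5% beside 2.23% and 2.47% of all genes. Of 13 genes of the desmosome list 1 was apart and lower, DSP, the desmosomal plaque protein desmoplakin. It measured 9.27 and 9.08 in the Fadu subline against 9.49 and 9.41 in its parent. In OECM1 it measured 8.65 and 8.88 in the subline against 9.97 and 9.39 in its parent. CTNNA1, the adherens junction protein alpha-catenin, was the 1 member of the desmosome list apart and higher (0.18 in Fadu and 0.26 in OECM1). PPL, periplakin, had changes of -0.44 in Fadu and -1.27 in OECM1. Of 16 epithelial identity and tight junction genes 1 was apart and lower, the claudin gene CLDN7 (-0.66 in Fadu and -0.39 in OECM1), 0 were higher and 2 were opposite. EHF, an epithelial transcription factor, had -0.62 in Fadu and -1.03 in OECM1, with 3 of the 4 Fadu arrays under the dim limit. Of 11 keratins, KRT5, a basal keratin, was apart and lower at 9.89 and 9.81 in the Fadu subline against 10.08 and 10.41 in its parent, and 4.87 and 6.23 in the OECM1 subline against 6.97 and 8.18 in its parent, most of the difference lying in OECM1, and KRT10 was apart and higher (0.39 in Fadu and 0.33 in OECM1). Of 17 squamous differentiation and S100 genes 0 were apart in both lines, and S100A14 had -1.73 in Fadu and -0.24 in OECM1 and S100A9 -1.09 in Fadu and 0.02 in OECM1. Of 16 glandular surface genes 0 were apart in the same direction, and TSPAN1 had -1.13 in Fadu and -0.51 in OECM1 and CLU 0.28 in Fadu and 0.74 in OECM1.

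Among proteases, which cut matrix, and their inhibitors, more members were apart in opposite directions (8 of 61) than in the same direction (4 of 61), while over all genes 2.23% were apart and higher, 2.47% apart and lower and 4.24% opposite. Of 20 matrix metalloproteinase and TIMP genes 1 was apart and higher, the inhibitor gene TIMP2 (0.26 in Fadu and 0.89 in OECM1), 0 were lower and 3 were opposite, with MMP14, the membrane-anchored metalloproteinase, at -0.26 and 0.56. MMP10, stromelysin-2, had a mean of 4.20 ± 0.423 against 5.20 ± 0.273 (SD, n = 2) in the Fadu subline and its parent, and lay under the dim limit in both Fadu subline arrays and in all 4 OECM1 arrays. Of 20 plasminogen activators, serpins and cathepsins 0 were apart and higher and 1 was lower, the protease inhibitor gene SERPINB1 (-1.14 in Fadu and -0.48 in OECM1). CTSV, a cathepsin, had 0.94 in Fadu and 0.66 in OECM1, and PLAT, the tissue plasminogen activator, was apart in opposite directions (-0.96 in Fadu and 0.84 in OECM1, with both Fadu subline arrays under the dim limit). Of 21 kallikreins, membrane serine proteases and sodium channel genes 1 was apart and higher, PRSS21, a membrane-anchored serine protease (0.60 in Fadu and 0.72 in OECM1, with 3 of the 4 OECM1 arrays under the dim limit), and 1 lower, KLK10, a kallikrein (-2.25 in Fadu and -0.39 in OECM1), with 3 opposite. KLK10 in OECM1 was near the dim limit. Of 18 interstitial matrix genes 0 were apart in the same direction, and CCN1 had 0.92 in Fadu and 0.70 in OECM1 and LOXL1, under the dim limit in all 4 Fadu arrays, 0.03 in Fadu and 0.85 in OECM1.

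Lists of signalling and motility genes held from 0 to 5 members apart in the same direction, read beside 2.23% higher, 2.47% lower and 4.24% opposite over all genes. Of 18 EGFR family genes and ligands 0 were apart in both lines, with the ligand gene NRG1, under the dim limit in both Fadu subline arrays, at -1.10 in Fadu and -0.48 in OECM1 and the receptor gene MET at 0.57 in Fadu and 0.36 in OECM1. Of 25 TGF-beta response genes 0 were apart in both lines, with FST, the activin antagonist follistatin, at 1.18 in Fadu and 0.73 in OECM1 and the ligand gene BMP2 at 0.08 in Fadu and 1.68 in OECM1. Of 17 YAP and TEAD targets 1 was apart and lower, YAP1, the coactivator itself (-0.60 in Fadu and -0.67 in OECM1), and 1 was opposite. By sign alone, 9 members had a change above 0 in both lines and 1 below 0 in both, beside 2165 and 2365 of all 8782 genes. The median was 0.24 in Fadu and 0.24 in OECM1. Other lists were also one-sided by sign, such as unfolded protein (13 above and 0 below of 24), G2 and mitosis (13 and 1 of 37) and NF-kB (2 and 12 of 26). Of 25 WNT and Notch genes 2 were apart and higher, DKK3 and the ligand gene WNT7B (0.41 in Fadu and 0.38 in OECM1), 1 was lower, the ligand gene WNT10B (-0.30 in Fadu and -0.44 in OECM1), and 4 were opposite. HES1, a Notch target, had 0.18 in Fadu and 1.07 in OECM1. Of 24 IGF axis and stem-associated genes 2 were apart and higher, SOX9 and the growth factor receptor gene IGF1R, and 0 lower. IGF1R measured 7.80 and 7.37 in the Fadu subline against 6.78 and 6.71 in its parent, and 8.04 and 7.51 in the OECM1 subline against 7.33 and 6.84 in its parent. Of 43 actin and motility genes 3 were apart and higher, MYL9, ILK (0.43 in Fadu and 0.13 in OECM1) and the GTPase gene RAC2 (0.13 in Fadu and 1.21 in OECM1), and 2 lower, TMSB10 (-0.20 in Fadu and -0.15 in OECM1) and TLN1 (-0.43 in Fadu and -0.15 in OECM1).

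Metabolic, stress, immune and cell cycle lists had at most 2 members apart in 1 shared direction, beside 2.23% higher, 2.47% lower and 4.24% opposite over all genes. Of 33 hypoxia and glycolysis genes 1 was apart and higher, ADM, the vasodilator peptide adrenomedullin, at 7.51 and 8.42 in the Fadu subline against 7.32 and 7.16 in its parent, and 10.41 and 9.58 in the OECM1 subline against 9.42 and 8.59 in its parent, 0 were lower and 3 opposite, and PGAM1, a glycolytic mutase, had -0.42 in Fadu and -0.56 in OECM1. Of 24 unfolded protein genes 1 was apart and higher, SLC7A5, an amino acid transporter (0.34 in Fadu and 0.21 in OECM1), and the chaperone genes PDIA6 and HSP90B1 had 0.51 in Fadu and 0.85 in OECM1 and 0.54 in Fadu and 0.70 in OECM1. Of 36 interferon stimulated genes 0 were apart and higher and 1 lower, OAS3, an antiviral synthetase (-0.37 in Fadu and -0.09 in OECM1), and IFI44 had 0.22 in Fadu and 0.60 in OECM1, with 3 of the 4 OECM1 arrays under the dim limit. Of 20 MHC class I presentation genes 0 were apart in both lines, with ERAP1 at -0.21 in Fadu and -1.12 in OECM1 and CANX at 0.21 in Fadu and 0.58 in OECM1. Of 37 G2 and mitosis genes 2 were apart and higher, the anaphase activator gene CDC20 (0.46 in Fadu and 0.44 in OECM1) and CENPM (0.13 in Fadu and 0.28 in OECM1), 0 lower and 2 opposite, and NEK2 had 1.18 in Fadu and 0.12 in OECM1. Of 36 S phase genes 0 were apart in the same direction and 4 were opposite, with RFC1 at 0.17 in Fadu and -0.91 in OECM1 and GINS3 at -0.22 in Fadu and -0.40 in OECM1. Of 18 p53 targets and cell cycle inhibitors 1 was apart and lower, ZMAT3 (-0.31 in Fadu and -0.19 in OECM1), with CCND1, cyclin D1, at -0.78 in Fadu and -0.55 in OECM1 and SFN at -0.40 in Fadu and -0.33 in OECM1.

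Of 32 NRF2 antioxidant genes 0 were apart and higher, 1 was lower, KEAP1, the NRF2 inhibitor (-0.28 in Fadu and -0.22 in OECM1), and 7 were in opposite directions (21.9%, against 4.24% of all genes), with ALDH3A1 at -1.88 in Fadu and 0.06 in OECM1 and HMOX1 at 0.72 in Fadu and 0.10 in OECM1. Of 24 cholesterol and fatty acid synthesis genes 0 were apart in the same direction and 7 in opposite directions (29.2%, against 4.24%), and LSS, lanosterol synthase, had -1.16 in Fadu and -0.21 in OECM1. In these 2 lists every opposite member was lower in the Fadu subline and higher in the OECM1 subline. Of the fibroblast, endothelial and leukocyte markers, 9, 6 and 10 were tested and 0 were apart in the same direction, with C1S at -1.53 in Fadu and 0.21 in OECM1, ENG at 0.32 in Fadu and -1.30 in OECM1, PLVAP at -0.05 in Fadu and -0.28 in OECM1, AIF1 at -0.41 in Fadu and -0.38 in OECM1 and CD14, under the dim limit in all 4 OECM1 arrays, at -0.31 in Fadu and 0.01 in OECM1. Over the 30 lists 0 members were called in the shared test.

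The mean level over a list gave the same direction in both lines, with subline and parent arrays apart, for 5 of the 30 lists, and opposite directions for another 5. These means were not tested, and the named genes contribute to them. The epithelial-mesenchymal transition list had a change of its mean of 0.43 in Fadu and 0.50 in OECM1, and the basement membrane and integrin list 0.27 and 0.31. Both lists stayed apart in both lines under the other 2 scalings of the arrays, quantile normalization again and centring on the median. The YAP and TEAD list had 0.33 and 0.17 and overlapped in OECM1 after quantile normalization. The NF-kB list had -0.43 and -0.21 and overlapped in OECM1 after centring. The actin list had 0.16 and 0.13, and overlapped in both lines after quantile normalization and in OECM1 after centring.

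**Figure D5:**
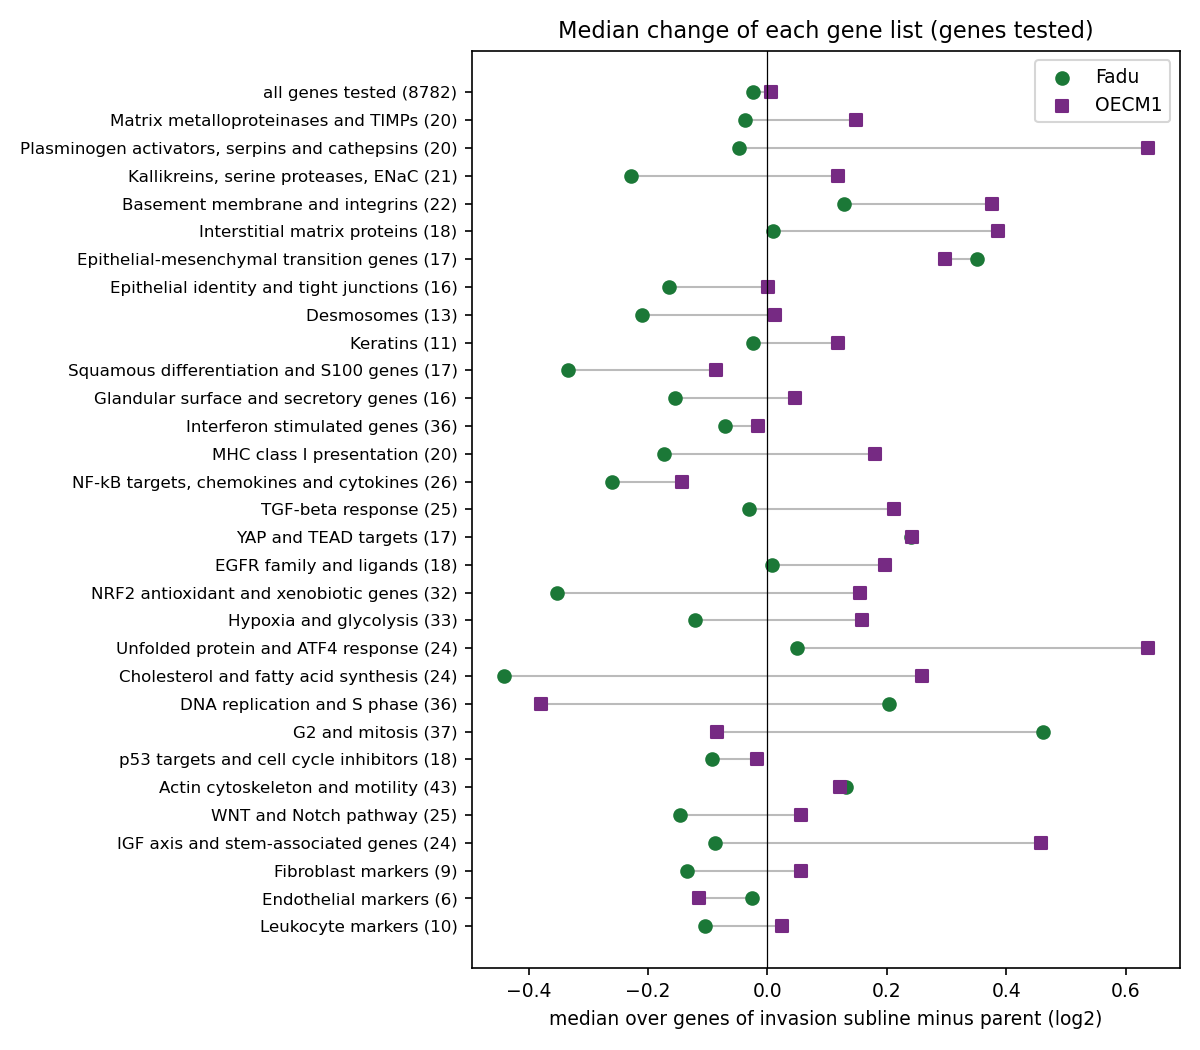
Median log2 change of each gene list in Fadu (green circles) and OECM1 (purple squares), with the number of genes tested in brackets and all 8782 genes in the top row. Both medians lie above 0 for the epithelial-mesenchymal transition list (0.35 and 0.30) and below 0 for the NF-kB list (-0.26 and -0.14), while the cholesterol and NRF2 lists have their medians on opposite sides.

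Within a single line few genes passed. In a fit of separate group means, limma called 2 genes in Fadu (0.0228%), with 244 (2.78%) at an unadjusted p under 0.05, and 0 in OECM1 (0%), with 416 (4.74%) at an unadjusted p under 0.05. Both Fadu calls were lower in the subline and neither was apart in the same direction in OECM1. GPX2, a glutathione peroxidase, had an adjusted p = 0.0322 and measured 5.59 and 5.29 in the Fadu subline against 8.04 and 8.86 in its parent, and 5.62 and 5.85 in the OECM1 subline against 5.15 and 5.01 in its parent. Its Fadu change of -3.01 stood against 0.66 in OECM1, and the difference between the lines had an adjusted p = 0.0520 (limma). BST2, the interferon-induced membrane protein tetherin, fell by 2.88 in Fadu (adjusted p = 0.0322, limma) and had -0.03 in OECM1, where all arrays were low (4.62 to 4.71). For BST2 the difference between the lines had an adjusted p = 0.293. Across all genes the test of that difference called 0 (0%), with 316 (3.60%) at an unadjusted p under 0.05. The count in Fadu fell to 0 without any 1 of the 4 Fadu arrays or of the 2 OECM1 subline arrays, and stayed at 2 without either OECM1 parent array. In OECM1 it was 20 without OECM1 parent replicate 1 and 1 without OECM1 parent replicate 2.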

How the data were processed

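Labelled RNA of each sample was read on an Affymetrix array. The deposited values are log2 expression values of 22283 probe sets, made by the authors with RMA and Partek 7 per the submitters' processing notes; their annotation is not given in the labels, and no detection calls were used. Of the probe sets, 68 were controls, 19065 had 1 gene symbol, 1043 several and 2107 none. Each of 11963 genes was represented by its brightest 1-symbol probe set by mean over the 8 arrays, and 8782 genes above the 40th percentile (4.50) in at least 2 arrays were tested. Genes were fitted with limma 3.58.1 in R 4.3.3 with cell line as a block and moderated errors with an intensity trend, and Benjamini-Hochberg adjustment covered all genes. The changes within a line and their difference came from a fit of 4 group means. The code was tested on simulated data. Scanner intensities were not used here. The number of arrays, 2 per group, limits the precision.

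The 12 higher and 12 lower named genes were those with the largest smaller line change among genes apart in both lines; up to 2 members per list were named by their smallest p. GPX2 and BST2 are the genes called in Fadu, and other list members were described because they were apart in both lines or, as with VIM, COL4A1 and IL6, chosen after their values were seen. The members, the 30 gene lists and the rules were chosen with earlier results of these data known. AKR1C1 and AKR1C2 were also chosen after their values were seen. Alternatives covered the filter, probe set, scaling, replicate block, arrays fitted, array weights, ACTB ratio and each array left out. Replicate numbers did not pair the samples: the same-number correlation of deviations was -0.384 in Fadu and -0.403 in OECM1. Promoters came from RefSeq, GRCh38.p14.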

Additional observations from a re-analysis of the deposited data

Results flagged for a closer look

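Over all genes 372 were apart in opposite directions in the lines. The following differences, among the genes named in the text and 2 added after their values were seen, are given because the 2 arrays of each subline lay on one side of their parent arrays in Fadu and on the other side in OECM1. The 2 added genes are AKR1C1 and AKR1C2, near-identical aldo-keto reductases of the NRF2 list whose probes can share signal. AKR1C1 had a change of -1.96 in Fadu and 1.46 in OECM1, a difference of 3.42 (OECM1 minus Fadu) with an adjusted p of 0.0509 (limma). AKR1C2 had -1.69 in Fadu and 1.46 in OECM1, a difference of 3.16 with an adjusted p of 0.0520. GPX2 had the largest difference of these genes, 3.67, with an adjusted p of 0.0520. SCD, the stearoyl-CoA desaturase of fatty acid synthesis, had a change of -2.39 in Fadu and 0.76 in OECM1, a difference of 3.15 whose adjusted p was 1.00 (limma). C1R, a complement protease, had -1.17 and 0.51, a difference of 1.67 with an adjusted p of 1.00 (limma). The difference was -2.35 for COL4A1 (adjusted p = 0.495), 1.81 for PLAT (adjusted p = 0.877) and 0.82 for MMP14 (adjusted p = 1.00).

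For 5 lists the mean over the members behaved in the same way, and these differences were not tested. The mean of the NRF2 antioxidant and xenobiotic genes had a change of -0.50 in Fadu and 0.28 in OECM1, a difference of 0.78. Kallikreins, membrane serine proteases and sodium channel genes had -0.50 and 0.30, a difference of 0.80, and glandular surface and secretory genes had -0.38 and 0.28, a difference of 0.65. Hypoxia and glycolysis genes had -0.15 and 0.23, a difference of 0.38. Matrix metalloproteinases and TIMPs had -0.18 and 0.19, a difference of 0.37. Under the other scalings the last 2 did not hold throughout: the metalloproteinase mean overlapped in OECM1 after quantile normalization and after centring, and the hypoxia mean overlapped in Fadu after centring.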

How the results depend on the processing

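The shared test called 0 genes under all 22 alternatives, with 232 to 753 genes at an unadjusted p under 0.05 and a smallest adjusted p between 0.111 and 1. The 24 named genes gave 525 values under these settings, of which 1 reversed: CD44 was -0.056 when the probe set with the largest interquartile range stood for it. With the replicate block the shared test called 0 genes (246 at an unadjusted p under 0.05) and Fadu 0 genes; the block changed no other call. Since same-numbered arrays deviated in opposite directions, a crossed pairing was added after seeing the data. It called 0 shared genes, 4 in the line difference and 1 in OECM1. Under this pairing the shared test had 556 genes at an unadjusted p under 0.05. With the ACTB ratio as a covariate it had 586 such genes, against 340 in the main fit. Genes apart and lower numbered 329 with no filter and 131 with the stricter filter, which also called 3 genes in the line difference and 1 in Fadu. Array weights called 2 in the line difference and 8 in Fadu. Leaving out each array in turn gave 336 to 698 genes apart and higher, 329 to 703 apart and lower, and 601 to 1338 apart in opposite directions, counts that rise because 1 array fewer has to lie beyond the others. It gave 0 to 2 calls in Fadu, 0 to 20 in OECM1 and 0 to 2 in the line difference. A group left with 1 array was assumed to vary like the others. Dim probe sets carry no detection call.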
